A study of Mus musculus with 2 samples.

Results

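Immediate early genes are the genes a neuron transcribes within minutes of being excited, before any new protein is made. The 10 genes described here are Fos, Fosb, Junb, Jund, Egr1, Nr4a1, Nr4a3, Npas4, Arc and Btg2, chosen by gene symbol from the 32289 features of the deposited matrices. They were chosen with the difference between the ages in view, so their levels and ratios in neurons are a description of these libraries and support nothing by themselves. Each was read in nuclei with 500 or more genes and at most 5% mitochondrial molecules, separately in striatal-type, interneuron, hypothalamic GABAergic and glutamatergic neurons and in glia.

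Nuclei came from the dissected anterior hypothalamus, preoptic area included, of male mice. The aged library pooled tissue of 5 mice of 22 months, and the young library pooled tissue of 5 mice of 3 months, which the labels call wild type; the labels used here give neither the strain, nor the genotype of the aged mice, nor the hour of dissection. RNA was counted by 10x Genomics droplet sequencing as unique molecular identifiers (UMIs), each standing for 1 captured RNA molecule. Each age has a single library, so no test can be made. Every 95% interval covers counting error only, and age, pool and library cannot be told apart.

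After filtering, 8597 aged and 10437 young barcodes were kept, against a stated aim of 10000 nuclei per library, and 25 barcode sequences occurred in both. Near the limit the libraries differed, with 202 aged and 43 young barcodes at 500 to 549 genes and 152 aged and 103 young at 450 to 499. Leaving out 368 aged and 489 young likely doublets gave 8229 aged and 9948 young nuclei, among them 5001 aged and 6425 young neurons with a median of 8353 and 7763 UMIs. Class names were rebuilt from marker genes and mean nuclei that resemble that type. Striatal-type neurons numbered 1957 aged and 2395 young, interneurons 252 and 369, hypothalamic GABAergic neurons 547 and 674, GABAergic neurons of no named type 1584 and 2023, and glutamatergic neurons 615 and 759. The libraries were not alike outside these classes, since a shallow unnamed cluster held 517 aged and 91 young nuclei and a glutamatergic sub-cluster led by Slc17a7 and Pdzrn3 held 10 and 133. Both were left out of the classes, and the second counts only among all neurons.

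Calcium entry through synaptic receptors and voltage-gated channels activates kinases that phosphorylate factors already bound at these promoters, chiefly CREB and SRF with its partners, and transcription follows at once. Most of the members encode transcription factors that then act on slower target genes: Fos, Fosb, Junb and Jund pair as AP-1, Egr1 is a zinc-finger factor, Nr4a1 and Nr4a3 are orphan nuclear receptors, and Npas4 is a neuronal factor induced by calcium. Arc acts at synapses, where it takes part in the removal of AMPA receptors, and Btg2 restrains cell division. Jund differs from the other members in being transcribed at a steady level in many resting cells. In hypothalamic work, Fos is the usual marker of neurons driven by thirst, salt or heat.

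CREB binds the cAMP response element, TGACGTCA, or its half-site, TGACG. Promoter windows of 300 bases around the RefSeq start site (build GRCm38.p6) were found for 8 of the 10 members, with none printed for Arc and Egr1. On either strand, 7 of those 8 windows held the half-site, against 20.8% of all 32851 mouse windows of that length. Fosb and Junb held 1 each, Fos, Btg2 and Npas4 2 each, and Nr4a1 and Nr4a3 4 each. The Jund window, which lies upstream of the start that GENCODE gives for that gene, held none. The full element was in the Btg2 window alone, against 1.79% of all windows, and its 2 half-sites overlap within it. The Egr motif GCGNGGGCG was found for Fosb, Nr4a1 and Btg2 and in 5.55% of all windows, and the AP-1 motif TGANTCA for none of the 8, against 7.81% of all. The CArG box, the motif of SRF, was likewise in none of the 8 and in 1.63% of all windows. The windows ran from 250 bases upstream to 50 downstream of the start, so motifs further away were not searched. A match describes letters only and shows neither binding nor a cause.

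The stretches below are shown because they hold 2 or more half-sites. They end before the RefSeq start and leave out exons of GENCODE M21, read 5′ to 3′ on the gene's strand, with half-sites in capitals as TGACG or, on the other strand, CGTCA. The Fos stretch is at chr12:85473640-85473889 on the plus strand, immediately upstream of the gene (chr12:85473890-85477273). The Nr4a1 stretch is at chr15:101266596-101266845 on the plus strand, within the annotated gene but outside its exons (chr15:101254269-101274795). The Nr4a3 stretch is at chr4:48045055-48045152 on the plus strand, and holds 3 of the 4 half-sites, immediately upstream of the gene (chr4:48045153-48086447). The Btg2 stretch is at chr1:134079156-134079405 on the minus strand, upstream of the gene (chr1:134075170-134079120). Npas4, whose window also held 2 half-sites, is not shown because that rule left no bases of it. Its window (chr19:4989922-4990221) lies within the annotated gene (chr19:4984355-4990316).
Fos: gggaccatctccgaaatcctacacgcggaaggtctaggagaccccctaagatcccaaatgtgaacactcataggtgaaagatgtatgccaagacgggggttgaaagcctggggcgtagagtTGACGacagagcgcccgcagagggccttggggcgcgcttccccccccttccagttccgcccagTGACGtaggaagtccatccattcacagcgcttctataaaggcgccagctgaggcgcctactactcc
Nr4a1: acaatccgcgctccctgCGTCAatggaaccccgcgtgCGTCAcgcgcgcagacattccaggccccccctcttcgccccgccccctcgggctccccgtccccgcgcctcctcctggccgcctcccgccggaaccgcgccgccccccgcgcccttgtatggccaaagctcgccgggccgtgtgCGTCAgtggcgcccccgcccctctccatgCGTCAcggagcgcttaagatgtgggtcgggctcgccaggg
Nr4a3: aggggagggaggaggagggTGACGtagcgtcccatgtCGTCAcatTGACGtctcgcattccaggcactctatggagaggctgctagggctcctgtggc
Btg2: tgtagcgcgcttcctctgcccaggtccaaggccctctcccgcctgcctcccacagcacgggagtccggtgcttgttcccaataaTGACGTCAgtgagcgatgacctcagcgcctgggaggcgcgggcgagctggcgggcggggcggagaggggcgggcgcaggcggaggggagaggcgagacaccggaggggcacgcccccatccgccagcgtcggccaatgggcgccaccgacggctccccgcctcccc
The letters were not set against the levels that follow, and the Jund window does not show the promoter at the GENCODE start.

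In neurons as a whole, the level of 9 members was lower in the aged library and that of Jund alone was higher. Levels are in CPM, the UMIs of a gene per 1000000 UMIs of the class in that library, and ratios are aged over young. Below, a gene is counted as lower when its aged level was lower by 20% or more, and as higher when it was higher by 25% or more, among genes with 50 or more UMIs over both libraries. All 9 were lower by that rule, against a background of 13.7% of 18025 genes lower and 10.7% higher. Since the members were chosen on this contrast, nothing is read from that count, nor from the counts in classes that follow. The median log2 ratio, with 5 CPM added to each library, was −0.31 over the 10 members and 0.01 over all genes tested.

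Of the AP-1 genes, Fos had 146 aged and 275 young UMIs in neurons, or 3.14 and 4.93 CPM, a ratio of 0.636 (0.517 to 0.780). Fosb, the Fos relative whose splice form ΔFosB accumulates in striatal neurons under repeated stimulation, had 52 and 95 UMIs, a ratio of 0.656 (0.458 to 0.929). Junb was at 16.0 aged and 22.0 young CPM, a ratio of 0.729 (0.665 to 0.799). Jund moved the other way, with 44.3 aged and 36.2 young CPM and a ratio of 1.23 (1.15 to 1.30). Jund alone thus held 2064 of the aged and 2018 of the young UMIs, more than any other member, so that the sum over all 10 stood at 0.843 (0.813 to 0.874) and the sum over the other 9 at 0.694 (0.664 to 0.727). Junb overlaps Prdx2, and Jund overlaps the antisense gene Gm11175, on opposite strands; nothing in the labels or headers says whether counting used strand, so reads of these pairs may be shared. Prdx2 had 3025 aged and 3430 young UMIs in neurons, and Gm11175 had 13 and 15.

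Egr1 was at 9.88 aged and 12.8 young CPM, a ratio of 0.772 (0.685 to 0.869), the smallest difference among the 9. The nuclear receptor genes differed from each other in size: Nr4a3 had 183 aged and 392 young UMIs, a ratio of 0.559 (0.467 to 0.668), and Nr4a1 had 610 and 1029, a ratio of 0.710 (0.641 to 0.786). Npas4 was at 6.92 aged and 9.41 young CPM, a ratio of 0.735 (0.638 to 0.846). Of the effectors, Arc was at 2.77 aged and 4.84 young CPM, a ratio of 0.572 (0.460 to 0.709). Btg2 was at 7.56 aged and 11.6 young CPM, a ratio of 0.650 (0.569 to 0.741). Nr4a3 and Arc thus had the lowest ratios and Egr1, Npas4 and Junb the highest of the 9, but the intervals of neighbours in this order overlap.

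Striatal-type neurons, named from markers such as Drd1, Drd2, Adora2a and Ppp1r1b, had the lowest summed ratio of the neuron classes. Striatal projection neurons receive dense glutamate and dopamine input and are known for strong induction of Egr1, Junb and Arc; whether these nuclei lay inside the hypothalamus was not tested. The 9 members without Jund summed to 76.0 aged and 124 young CPM, a ratio of 0.614 (0.572 to 0.658). All 10 members had 50 or more UMIs in this class, and 8 were lower by that rule, against a background of 12.5% of genes. None was higher by it, against 14.1% of genes.

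Nr4a3 had 73 aged and 203 young UMIs in striatal-type neurons, or 4.49 and 11.01 CPM, a ratio of 0.408 (0.308 to 0.535). Arc had 60 and 156 UMIs, a ratio of 0.436 (0.318 to 0.591). Fos had 37 and 93 UMIs, a ratio of 0.451 (0.300 to 0.667). These 3 were therefore at under 0.5 of the young level. Nr4a1 followed at 11.6 aged and 22.9 young CPM, a ratio of 0.505 (0.423 to 0.601). Npas4 was at 7.20 aged and 13.3 young CPM, a ratio of 0.542 (0.431 to 0.678). Egr1 and Junb, whose young levels of 19.3 and 32.3 CPM in this class were the highest of any neuron class, differed less. Egr1 was at a ratio of 0.729 (0.615 to 0.864), Junb of 0.736 (0.646 to 0.838) and Btg2 of 0.758 (0.591 to 0.970). For Fosb, at 34 aged and 46 young UMIs, the interval of 0.522 to 1.33 included 1, and so did that of Jund, 0.999 to 1.23.

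Interneurons, named from markers such as Lhx6, Sox6, Sst, Npy and Kit, had few nuclei, and only 6 members had 50 or more UMIs. Among those 6, 4 were lower (background 14.2%) and 1, Jund, was higher (background 16.4%). The 9 members without Jund summed to 161 aged and 377 young UMIs, a ratio of 0.626 (0.517 to 0.754). Fos and Arc were below 50 UMIs. Fos had 4 aged UMIs, each in a nucleus of its own, and 30 young UMIs in 23 nuclei, a ratio of 0.195 (0.04999 to 0.554). Arc likewise had 4 aged and 24 young UMIs, a ratio of 0.244 (0.0616 to 0.711). Nr4a1 was at 22.3 aged and 24.3 young CPM, a ratio of 0.918 (0.636 to 1.31), with an interval that included 1. With likely doublets kept, the class shrank to 106 aged and 149 young nuclei and the sum over all 10 members was at 0.982 in place of 0.815.

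Hypothalamic GABAergic neurons, named from markers such as Esr1, Gal, Prlr, Vip and Rorb, showed no lower sum. The 9 members without Jund had 303 aged and 341 young UMIs, or 59.4 and 57.6 CPM, a ratio of 1.03 (0.881 to 1.21). Of the 8 members with 50 or more UMIs, none was lower by 20% or more (background 12.6%) and 4 were higher by 25% or more (background 12.7%). Those 4 were Npas4, Jund, Egr1 and Fos. Npas4 had 39 aged and 28 young UMIs, a ratio of 1.62 (0.971 to 2.73). Jund was at 46.5 aged and 34.3 young CPM, a ratio of 1.36 (1.12 to 1.64), and was the single member of the 4 whose interval lay above 1. Egr1 had 41 and 36 UMIs, a ratio of 1.32 (0.825 to 2.13), and Fos had 28 and 26, a ratio of 1.251 (0.707 to 2.22). The RNA of 1 average empty droplet per nucleus, described below, would supply 35.4% of the aged and 47.4% of the young Egr1 UMIs. Subtracting it gave 1.64 for Egr1. Btg2, at 10.4 aged and 11.99 young CPM, and Junb, at 11.8 and 13.5 CPM, were lower with intervals that included 1.

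This result depends on how the class is named. A sub-cluster entered a class when its marker score was above 0 and no other class led it in top genes, and 5 GABAergic sub-clusters that scored highest for hypothalamic markers, but below 0, stayed without a type. With each sub-cluster joined to its best-scoring class, a choice made after seeing the data, 1766 aged and 2211 young hypothalamic GABAergic neurons gave 0.794 (0.729 to 0.864) for the 9 members. The sum over all 10 then stood at 0.956 (0.895 to 1.02) in place of 1.15 (1.02 to 1.30). The striatal-type and interneuron values under the same change were 0.617 (0.576 to 0.660) and 0.651 (0.566 to 0.748) for the 9 members.

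**Figure D1:**
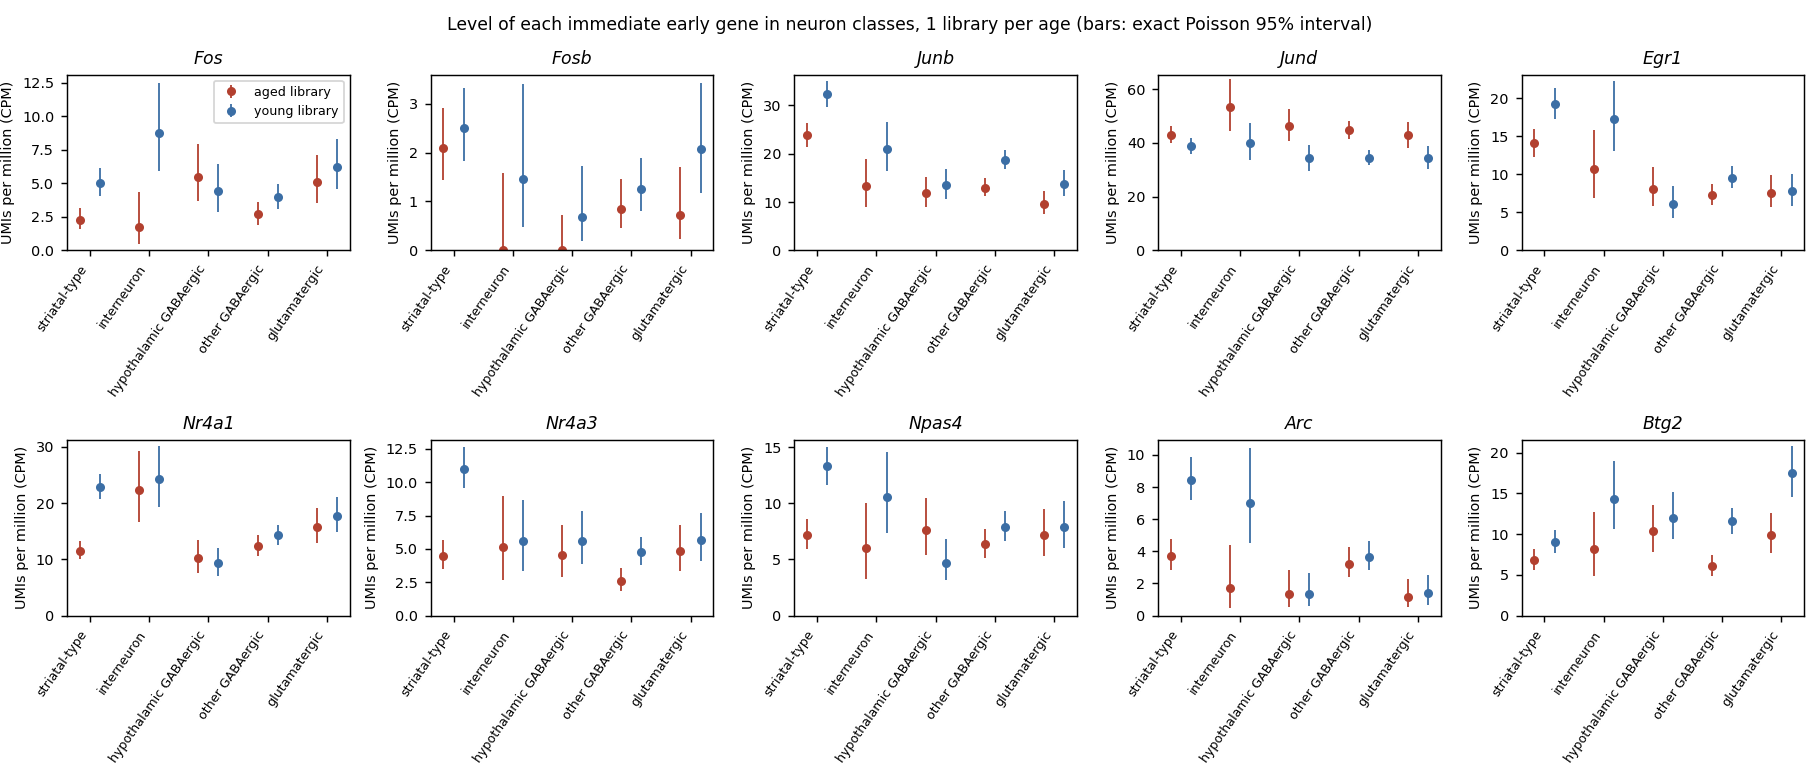
Level of each member in CPM (y axis) in 5 neuron classes (x axis), with the aged library in red left of the young library in blue and exact Poisson 95% intervals as bars. In striatal-type neurons Nr4a3 was at 4.49 aged and 11.01 young CPM, while in hypothalamic GABAergic neurons it was at 4.51 and 5.57 CPM.

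The gap between the classes can be put as a ratio of their 2 ratios, with an exact conditional interval for counting error. For the 9 members together, the striatal-type ratio was 0.595 of the hypothalamic GABAergic one (0.500 to 0.707). Among single members, Npas4 stood furthest apart at 0.336 (0.189 to 0.590), followed by Fos at 0.363 (0.178 to 0.733), Nr4a1 at 0.460 (0.297 to 0.714), Nr4a3 at 0.505 (0.267 to 0.963) and Egr1 at 0.552 (0.332 to 0.914). For Junb at 0.845 (0.582 to 1.23), Btg2 at 0.875 (0.557 to 1.38) and Jund at 0.819 (0.656 to 1.02), the interval included 1. The intervals of Npas4 and Fos overlap those of Junb and Btg2, and differences between members were not tested. For the 9 members, interneurons were likewise at 0.606 of the hypothalamic GABAergic ratio (0.473 to 0.776) and glutamatergic neurons at 0.750 (0.612 to 0.920). In glutamatergic neurons, 1 young nucleus held 71 of the 577 young UMIs of this sum. GABAergic neurons of no named type were at 0.696 of it (0.581 to 0.835). The gap depends on how the classes are named. With best-scoring classes, the striatal-type and hypothalamic GABAergic ratios of the 9 were 0.617 and 0.794. All intervals here treat UMIs as independent and carry no variation between mice.

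Glutamatergic neurons lay between these classes. The 9 members without Jund summed to 61.9 aged and 79.9 young CPM, a ratio of 0.774 (0.681 to 0.879). A single young nucleus held 71 of the 577 young UMIs of this sum, while the highest aged nucleus held 12 of 424. That young nucleus also held 20 of the young Btg2 UMIs. Its part in the class ratios of the 9 and of Btg2 was not tested. Of the 8 members with 50 or more UMIs, 2 were lower by the rule (background 15.6%) and none was higher (background 10.7%). Btg2 had 68 aged and 126 young UMIs, a ratio of 0.569 (0.417 to 0.770), and Junb had 66 and 99, a ratio of 0.702 (0.506 to 0.969). Fos, Egr1, Nr4a1 and Npas4 were at 0.819, 0.978, 0.889 and 0.906 with intervals that included 1. Jund was at 42.8 aged and 34.4 young CPM, a ratio of 1.24 (1.05 to 1.48). Nr4a3 rested on single nuclei, with 12 of 33 aged and 29 of 41 young UMIs in 1 nucleus each, and without them its ratio was 1.84 in place of 0.848.

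Among glutamatergic neurons, the sub-cluster led by Trh, Sim1, Oxt and Avp, genes of paraventricular and supraoptic neurons, had the lowest ratio. Its 216 aged and 256 young nuclei held 158 and 270 UMIs of the 9 members, a ratio of 0.622 (0.508 to 0.760). Without the highest nucleus of each library, which held 12 aged and 71 young UMIs, the ratio was 0.777 (0.623 to 0.967). Btg2 was at 14.6 aged and 31.0 young CPM, a ratio of 0.472 (0.301 to 0.726), and at 0.571 (0.347 to 0.921) without its highest nuclei. Fos had 12 aged and 23 young UMIs, a ratio of 0.555 whose interval of 0.252 to 1.16 included 1. In the hypothalamic GABAergic sub-cluster led by Vip, Prr5l and Rorb, 86 aged and 116 young nuclei held 68 and 73 UMIs of the 9 members, a ratio of 1.18 (0.839 to 1.67).

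**Figure D2:**
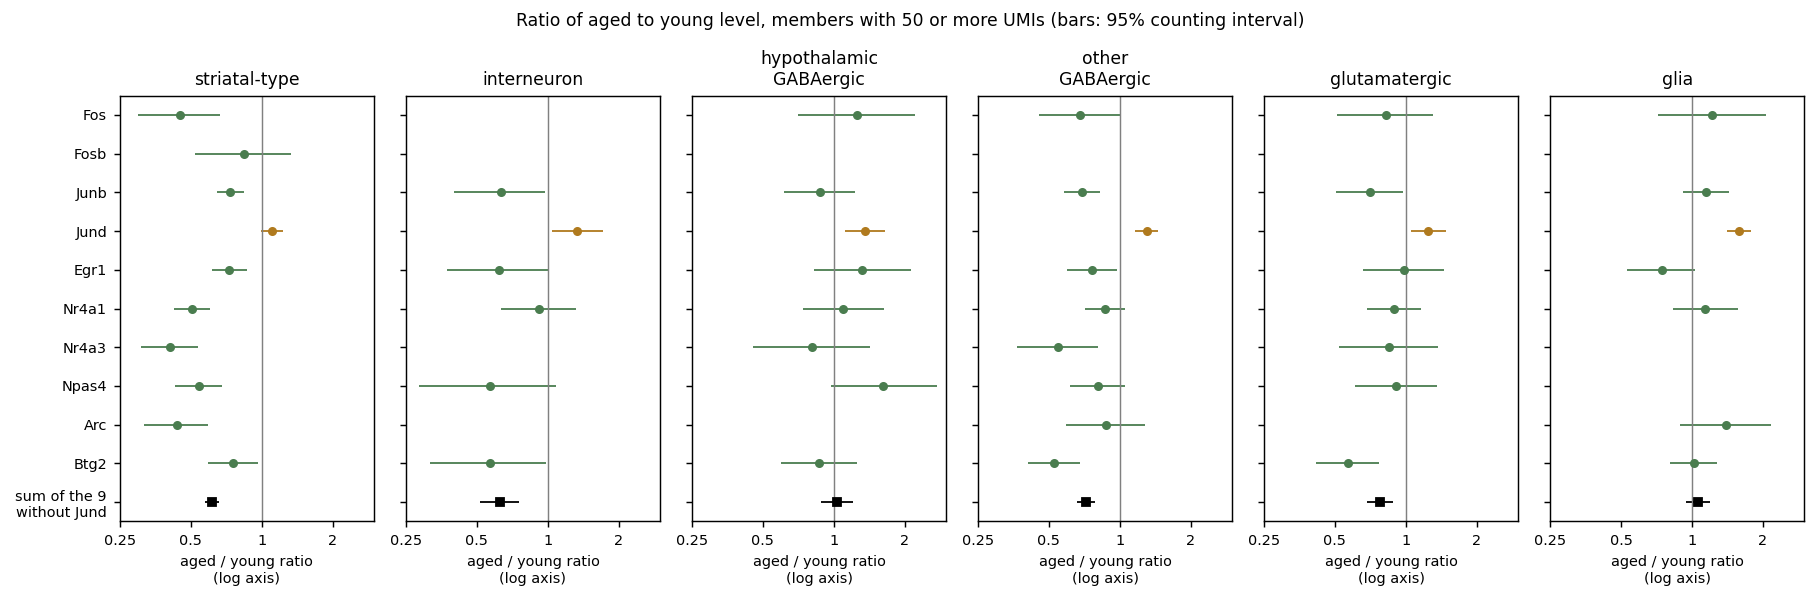
Ratio of the aged to the young level (x axis, log scale) for each member with 50 or more UMIs and for the 9 members without Jund (rows), in 5 neuron classes and glia, with 95% counting intervals. The black squares stand at 0.614 in striatal-type and 0.626 in interneurons, 1.03 in hypothalamic GABAergic and 0.774 in glutamatergic neurons, and Jund lies right of 1 in each panel.

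GABAergic neurons of no named type, led in part by Lhx8, Gbx1, Prkcd or Tac2, were at 54.4 aged and 75.6 young CPM for the 9 members, a ratio of 0.719 (0.659 to 0.784). All members but Fosb had 50 or more UMIs in this class. Btg2 had 93 aged and 211 young UMIs, a ratio of 0.526 (0.408 to 0.675), the lowest here, and Nr4a3 was at 0.549 (0.368 to 0.807). Arc, at 0.436 in striatal-type neurons, was at 0.874 (0.592 to 1.28) in this class. The 31 aged and 51 young cholinergic neurons had under 50 UMIs of every member, with 33 and 35 UMIs of the 9 together and no UMI of Fosb or Arc.

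Across 25 neuron sub-clusters with 20 or more nuclei per library, 24 had 50 or more UMIs of the 9 members, and the aged level was lower in 19 of them. The interval lay below 1 in 15 and above 1 in none. The aged level was lower in all 7 striatal-type sub-clusters (0.383 to 0.911) and all 7 without a type (0.614 to 0.823), in both interneuron ones, in 2 of 4 glutamatergic and in 1 of 3 hypothalamic GABAergic ones. The lowest ratio belonged to a striatal-type sub-cluster led by Gm10754 and Car12, with 117 aged and 395 young UMIs and a ratio of 0.383 (0.309 to 0.471). The sub-cluster led by Adora2a, Drd2 and Penk, genes of indirect-pathway neurons, was at 0.657 (0.583 to 0.739). The Sst and Npy interneuron sub-cluster was at 0.562 (0.448 to 0.702), while the one led by Kit was at 0.832 (0.574 to 1.19). Jund was higher in the aged library in 20 of 22 sub-clusters with 50 or more of its UMIs.

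**Figure D3:**
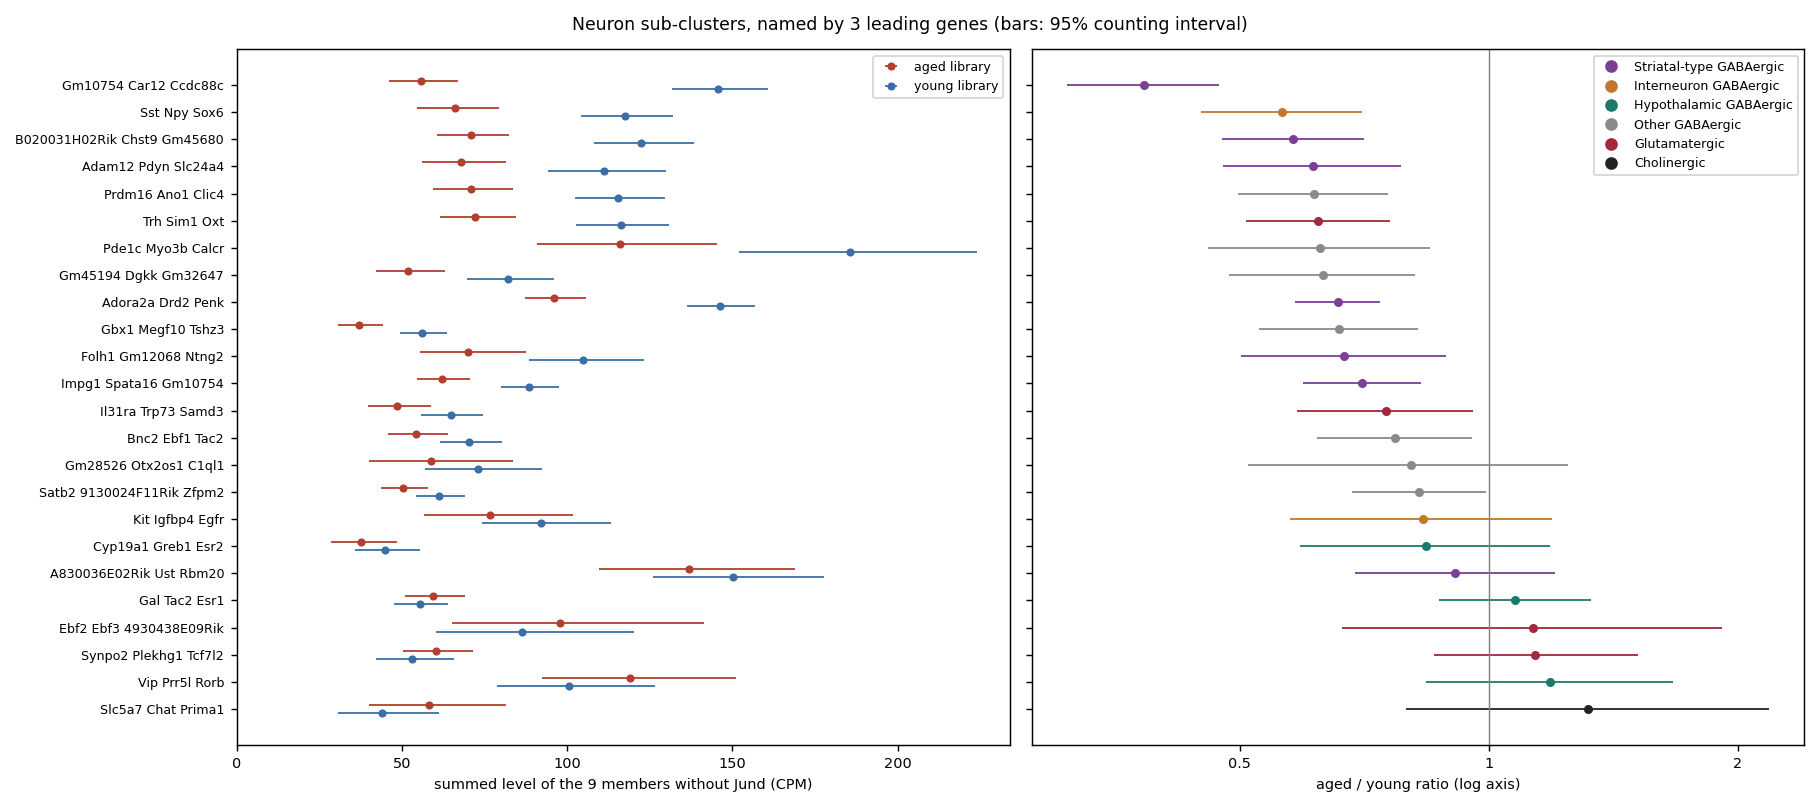
Summed level of the 9 members without Jund in CPM (left, aged red and young blue) and its aged over young ratio (right, log scale, coloured by class) in 24 neuron sub-clusters, with 95% counting intervals. In 15 sub-clusters the interval ends below 1, with the Gm10754 and Car12 sub-cluster lowest at 0.383, and those above 1 all have intervals that include 1.

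Detection in single nuclei was compared at equal depth. With each neuron thinned to 5000 UMIs, a depth chosen after seeing the data, 718 aged and 1291 young neurons were too shallow and were left out. Among the remaining neurons, 991 of 4283 in the aged library (23.1%, 21.9 to 24.4) and 1395 of 5134 in the young library (27.2%, 26.0 to 28.4) held at least 1 of the 9 members. As for several members in 1 nucleus, 3 or more were found in 42 aged (0.981%, 0.708 to 1.32) and 116 young neurons (2.26%, 1.87 to 2.70). Lower detection of each member by itself makes such a ratio larger for several members, so nothing is read from its size. At least 5 UMIs of the 9 were found in 20 aged (0.467%) and 76 young neurons (1.48%). Nuclei thinned to 1000 UMIs gave 5.97% aged and 8.06% young with at least 1 member, and without thinning 64.7% of aged and 62.1% of young neurons had none.

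The shares were also read by class, with no test of a difference between classes. At 5000 UMIs, 2 or more members were found in 75 of 1539 aged striatal-type neurons (4.87%, 3.85 to 6.07) and 159 of 1717 young ones (9.26%, 7.93 to 10.7). In hypothalamic GABAergic neurons the counts were 18 of 479 aged (3.76%, 2.24 to 5.87) and 27 of 574 young (4.70%, 3.12 to 6.77). At least 1 member was found in 20.7% of aged and 20.6% of young hypothalamic GABAergic neurons.

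**Figure D4:**
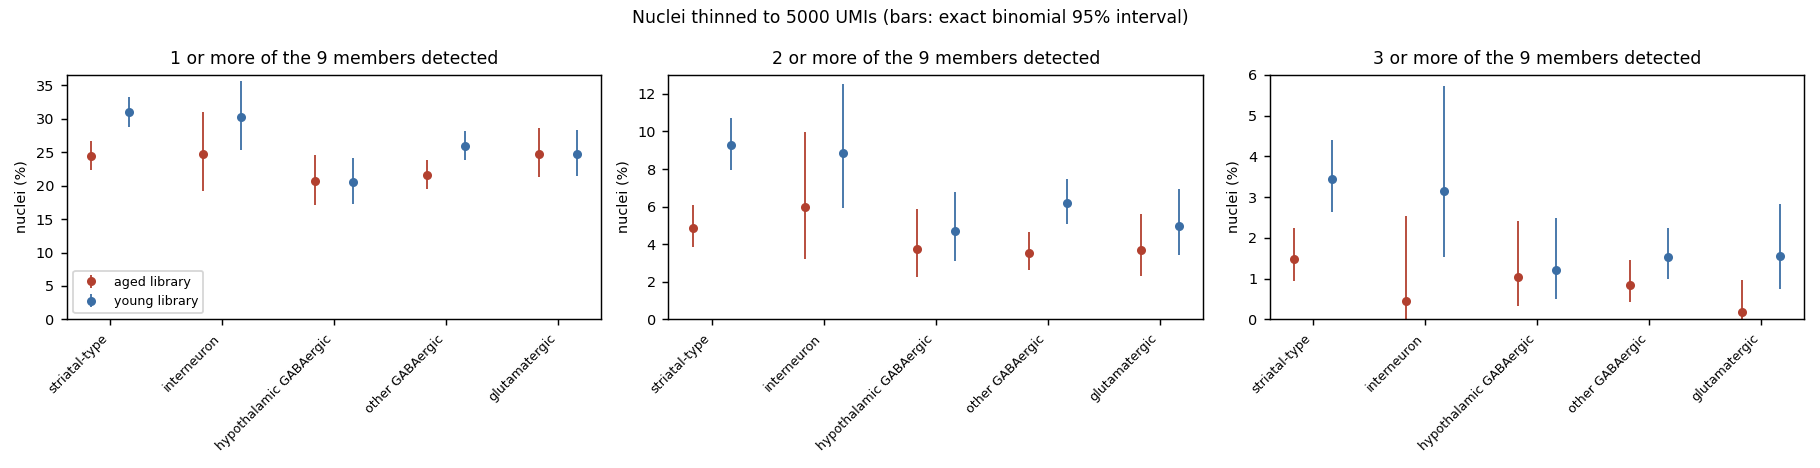
Percentage of nuclei (y axis) with at least 1, 2 or 3 of the 9 members detected after thinning to 5000 UMIs, in 5 neuron classes, aged in red left of young in blue, with exact binomial 95% intervals. For 2 or more members, striatal-type neurons were at 4.87% aged and 9.26% young and hypothalamic GABAergic neurons at 3.76% and 4.70%.

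Detection of the other members was set against that of Fos in the same nuclei. Among young neurons at 5000 UMIs, Nr4a3 was detected in 26 of 108 nuclei with Fos (24.1%, 16.4 to 33.3) and 97 of 5026 without Fos (1.93%, 1.57 to 2.35). Nr4a1 was in 32.4% of young nuclei with Fos and 7.12% of those without, and Junb in 26.9% and 8.60%. In the aged library Nr4a3 was in 6 of 67 nuclei with Fos (8.96%, 3.36 to 18.5) and 52 of 4216 without (1.23%, 0.922 to 1.61), and Nr4a1 in 16.4% and 5.41%. Junb was in 10.4% of aged nuclei with Fos (4.30 to 20.3) and 7.23% of those without (6.47 to 8.06), so its interval with Fos holds its share without. The same was true in the aged library of Fosb, Arc and Jund. Jund was in 16.7% of young nuclei with Fos and 16.3% of young nuclei without.

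The genes most like the members over the neuron sub-clusters were ranked by Pearson correlation, over 50 points (25 sub-clusters in each of the 2 libraries), of their log2 level with the mean over the 10 members. Of 15864 genes ranked, which leave out the members and the other rapid response genes, the first 5 were Map3k3 (r = 0.67), 6430590A07Rik (0.65), Sik3 (0.64), Snorc (0.62) and Pde4a (0.62). Map3k3 encodes a kinase upstream of MAP kinases, Sik3 a salt-inducible kinase and Pde4a a cAMP phosphodiesterase. For the members, each set against the mean of the other 9, r was highest for Egr1 and Junb (0.65 each) and Nr4a3 (0.56) and lowest for Btg2 (0.22) and Jund (0.21). Points of 1 library share its depth and pool, so these values are a description with no test.

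A small number of nuclei carried much of the signal. The top 1% of neurons held 17.4% of aged and 20.1% of young UMIs of the 9 members. The highest aged nucleus was a striatal-type neuron with 33 UMIs, 11 of them Npas4, 8 Junb and 7 Btg2. The highest young nucleus lay in the Trh, Sim1, Oxt and Avp sub-cluster and had 71 UMIs, 29 of them Nr4a3 and 20 Btg2. Ranked by raw UMIs with glia included, all 5 highest aged nuclei were striatal-type, against 2 of the 5 highest young ones. The fifth young nucleus clustered with microglia and had 26 UMIs, 4 of them Npas4. It held 7681 UMIs of all genes, against a median of 1806 in young microglia. Whether it was a doublet that was not marked was not tested. This ranking took no account of depth and rests on 5 nuclei per library.

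Glia differed by type. Over oligodendrocytes, their precursors, astrocytes and microglia together, 2632 aged and 3251 young nuclei, the 9 members without Jund were at 86.6 aged and 81.8 young CPM, a ratio of 1.06 (0.943 to 1.19). Of the 7 members with 50 or more UMIs, 1 was lower by the rule (background 11.4%) and 2 were higher (background 18.8%). The lower one was Egr1, at 9.52 aged and 12.8 young CPM, where 1 empty droplet per nucleus would give 10.9 in each library, so it is read as background. In microglia the 9 members were lower, at 216 aged and 287 young CPM, a ratio of 0.753 (0.624 to 0.906). There, 1 young nucleus held 26 of 269 UMIs, while the highest aged nucleus held 6 of 204. That young nucleus had 7681 UMIs of all genes, against a young microglial median of 1806, and may be a doublet, which was not tested. In oligodendrocytes, precursors and astrocytes the 9 were at 1.18, 1.37 and 1.23 with intervals that included 1. Empty droplets would supply 56.4% of aged and 67.2% of young UMIs of the 9 in oligodendrocytes. The shares were 27.4% and 38.6% in precursors and 36.1% and 49.8% in astrocytes. Subtracting that RNA gave 1.62, 1.65 and 1.58, on only 103 precursor and 93 astrocyte UMIs. Over all glia, Jund was at 107 aged and 67.2 young CPM, a ratio of 1.59 (1.41 to 1.78). Glial nuclei were shallow, with a median of 2151 aged and 2044 young UMIs, so the RNA that 1 empty droplet holds would be a larger share of what is counted in them than in neurons.

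Free RNA, from broken cells, was measured in 40000 low-count barcodes per library, none of them a nucleus called here, which held a mean of 328 aged and 243 young UMIs. Immediate early genes were abundant in it. Jund was at 389.7 aged and 307 young CPM in empty droplets, a ratio of 1.27 (1.21 to 1.33), and the 9 other members were at 242 and 313 CPM, a ratio of 0.773 (0.735 to 0.812). In barcodes with 100 or fewer UMIs, Jund was at 1.97 (1.71 to 2.28) and the other 9 at 0.871 (0.744 to 1.02), an interval that includes 1. If each nucleus carried 1 average empty droplet of RNA, free RNA would supply 13.2% of aged and 9.43% of young UMIs of the 9 members in neurons, and 30.9% and 23.7% of those of Jund. Subtracting it left the 9 members in neurons at 0.671 and in striatal-type neurons at 0.588. It brought Jund to 1.12 in neurons and 0.959 in striatal-type neurons, where the direction turned. Free RNA also entered the shares of nuclei above, where its part was not tested.

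**Figure D5:**
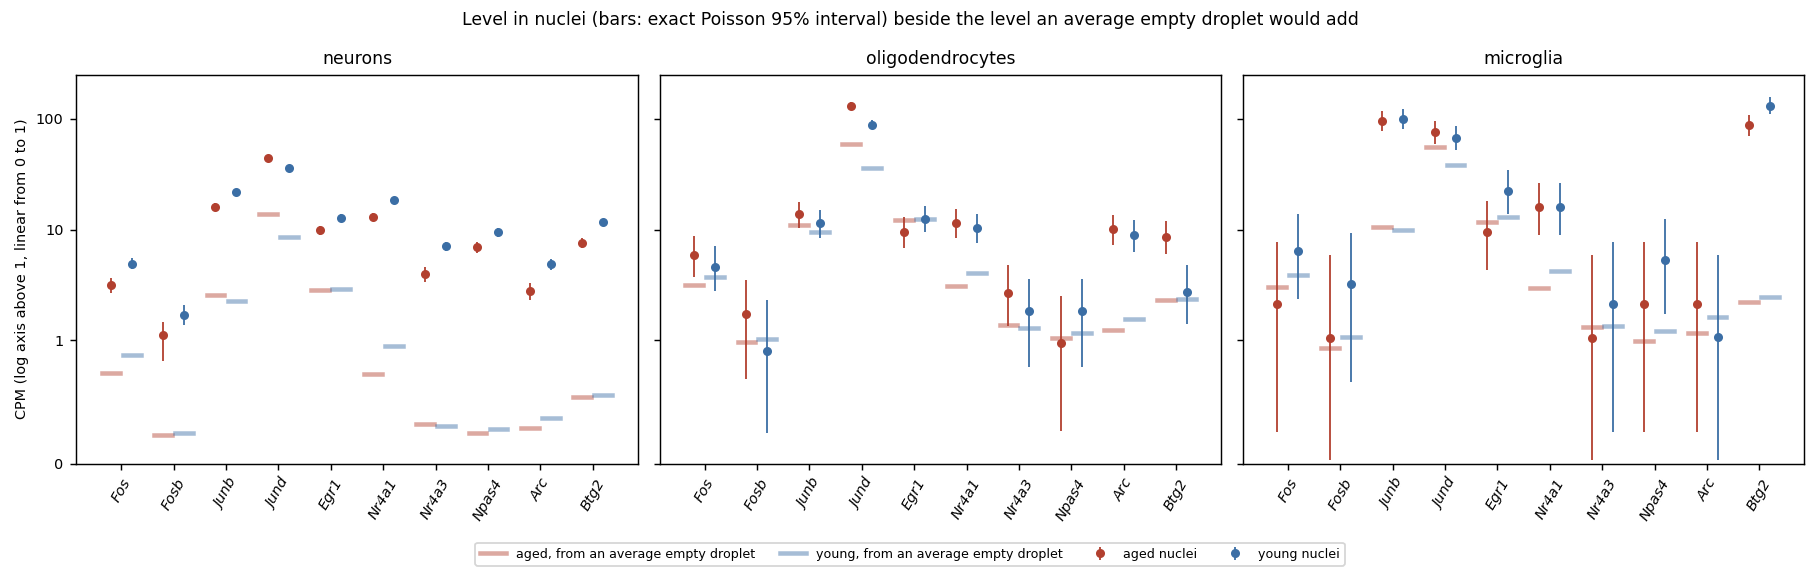
Level of each member in CPM (y axis, log above 1 and linear below) in neurons, oligodendrocytes and microglia, aged in red left of young in blue, with exact Poisson 95% intervals and, as flat bars, the level that 1 average empty droplet per nucleus would add. Egr1 in oligodendrocytes sits at the flat bar in both libraries, while Btg2 and Junb in microglia stand far above theirs.

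In oligodendrocytes, the myelinating glia, Egr1 was at 9.54 aged and 12.5 young CPM, where empty droplets would give 12.2 and 12.3, so it is read as background. Junb, at 13.7 aged and 11.4 young CPM, was little above the 11.03 and 9.48 from empty droplets. Jund was well above that level, at 130.4 aged and 88.5 young CPM against 58.7 and 36.2, with a ratio of 1.47 (1.29 to 1.68) and of 1.43 after subtraction. Btg2 had 35 aged and 12 young UMIs, a ratio of 3.13 (1.59 to 6.62), with 8.56 aged and 2.74 young CPM against 2.31 and 2.36 from empty droplets. Arc was at 10.0 aged and 8.89 young CPM in oligodendrocytes, above the 1.23 and 1.56 from empty droplets. Its 2.77 and 4.84 CPM in neurons were lower, but CPM are shares of the UMIs of a class. Oligodendrocytes had a median of 2023 aged and 1891 young UMIs, against 8353 and 7763 in neurons. A higher CPM here therefore does not mean more Arc RNA per nucleus. The 41 aged and 39 young Arc UMIs in oligodendrocytes lay in 40 and 38 nuclei, and the ratio was 1.13 (0.710 to 1.80). Oligodendrocytes had 1 of 5 members with 50 or more UMIs lower by the rule (background 8.3%) and 1 higher (background 22.6%).

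Microglia, the resident immune cells, had the highest levels of Junb and Btg2 of any class described. Junb was at 95.3 aged and 99.2 young CPM, a ratio of 0.960 (0.711 to 1.30). Btg2 was at 86.8 aged and 131 young CPM, a ratio of 0.662 (0.494 to 0.882) and of 0.672 after subtraction, and was the single member of 3 with 50 or more UMIs that was lower by the rule (background 14.9%), while none was higher (background 21.7%). Jund was at a ratio of 1.13 (0.797 to 1.62) in microglia, and at 0.713 after subtraction. In precursors Jund had 52 aged and 29 young UMIs, a ratio of 2.32 (1.45 to 3.79), and empty droplets would supply 44.9% of the aged and 65.3% of the young ones. Subtraction moved that ratio to 3.74. In astrocytes it had 27 and 29, a ratio of 1.98 (1.13 to 3.47), but at 48.6 aged and 24.5 young CPM it was near the 35.6 and 24.3 from empty droplets. No other member reached 50 UMIs in precursors or astrocytes.

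Other genes of the same pathway were followed in neurons from 3 lists. Of 25 other rapid primary response genes, 23 had 50 or more UMIs, 7 of them lower by the rule and 1 higher, against backgrounds of 13.7% and 10.7%. The median log2 ratio of the 23 was −0.05, against 0.01 over all genes, and with 1 CPM added in place of 5 it was −0.15, against 0.01. By any amount, 18 of the 23 were lower, beside 47.0% of all genes. The lower ones were Fosl2 at 0.578 (0.469 to 0.710), Jun at 0.790 (0.692 to 0.901), Nr4a2 at 0.722 (0.555 to 0.934) and Egr3 at 0.773 (0.651 to 0.915), all transcription factors of the members' own families, with Egr2 (14 aged and 37 young UMIs), Fosl1 (39 and 72) and Ccn1 (26 and 51) at lower counts. Csrnp1, with 45 aged and 36 young UMIs, was the higher one at 1.497 (0.945 to 2.39). Of the 4 genes of the list with most UMIs, all but Jun were near 1 or above it. Homer1, which encodes a synaptic scaffold with a short activity-induced form, was at 0.979 (0.947 to 1.01), and Per1, a clock gene, was at 0.976 (0.889 to 1.07). Klf6, a zinc-finger factor, stood at 1.15 (1.01 to 1.31), and Jun, given above, was the fourth.

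Of 20 slower activity-regulated genes, all with 50 or more UMIs, 4 were lower by the rule and 1 higher, beside 13.7% and 10.7% of all genes, and the median log2 ratio was 0.02. Inhba, which encodes an activin subunit, was at 20.0 aged and 31.7 young CPM, a ratio of 0.632 (0.583 to 0.684). Dusp4 and Spry2, feedback inhibitors of MAP kinase signalling, were at 0.702 (0.537 to 0.914) and 0.794 (0.717 to 0.880), and Nrn1, a neurite growth factor, at 0.799 (0.733 to 0.871). Ptgs2 was higher at 1.41, on 40 aged and 34 young UMIs and with an interval of 0.870 to 2.30. Among the 4 genes with most UMIs, Scg2, Vgf and Syt4, products of dense-core vesicles and their release, were at 1.10, 1.18 and 1.23, and Sorcs3 at 0.9303. Bdnf, a target of Npas4, was at 1.01 (0.892 to 1.15).

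The last list held 23 genes of the machinery that switches the members on. None was lower by 20% or more (background 13.7%) and 1, the kinase gene Mapk3, was higher by 25% or more (background 10.7%), at 1.37 (1.24 to 1.52). By any amount, 15 of the 23 were lower, beside 47.0% of all genes, and the median log2 ratio was −0.04. Camk2a, a calcium-dependent kinase, was at 0.807 (0.790 to 0.824) and the CREB coactivator gene Crtc1 at 0.826 (0.786 to 0.867), both short of 20%. Creb1 was at 1.03 (0.983 to 1.07) and Srf at 0.904 (0.715 to 1.14). The 4 with most UMIs, Ppp3ca, Cacna1c, Cacna1d and Grin1, were at 1.03, 0.967, 0.919 and 0.996.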

How the data were processed

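Nuclear RNA of 2 libraries, 1 per age, was counted as UMIs per gene and barcode with Cell Ranger 4, per the submitters' processing notes. The authors deposited the raw counts, unfiltered, as 1 matrix per library of 79107368 aged and 87520038 young UMIs. Genome build, annotation, intronic reads and use of strand: not given in the sources used here. Members, gene lists and markers were chosen with earlier results of these data known, and every member and list is described.

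Barcodes with 500 or more genes and at most 5% mitochondrial UMIs were kept, with a median of 5699 aged and 5567 young UMIs. Barcodes marked by Scrublet in each library were left out. The rest were scaled to 10000 UMIs, log-transformed and clustered (scanpy 1.11.5, 2000 variable genes without the members, 30 principal components, 15 neighbours, Leiden resolution 1 with igraph 0.11.9). Clusters were named from markers, with at least 3 detected, and the names were rebuilt here.

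For each class, UMIs were summed within a library and expressed as CPM. Intervals at 95% are exact Poisson for levels, exact conditional binomial for ratios and Clopper-Pearson for shares, and all cover counting error only. Genes needed 50 or more UMIs over both libraries to be counted as higher or lower, and 5 CPM were added for log2 ratios. The named genes were all 10 members, list genes counted as higher or lower, the 4 of each list with most UMIs, and the 5 genes most like the members. Bdnf, Camk2a, Crtc1, Creb1 and Srf fall outside this rule and were chosen after their values were seen. The ratios and their intervals were tested on simulated data. The alternatives covered gene and mitochondrial limits, doublets, scaling, sub-cluster weights, free RNA, resolution, variable genes, single nuclei and single members. Python 3.11.15, numpy 2.4.6, scipy 1.17.1, pandas 2.3.3 and matplotlib 3.10.9 were used.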

Additional observations from a re-analysis of the deposited data

Results flagged for a closer look

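The summed level of the 10 members stood on opposite sides between classes under the same comparison of ages. Aged over young, it was above 1 in hypothalamic GABAergic neurons (1.15), oligodendrocytes (1.36), oligodendrocyte precursors (1.72) and astrocytes (1.48), and below 1 in striatal-type neurons (0.732), interneurons (0.815), GABAergic neurons of no named type (0.9) and microglia (0.825). With 1 library per age the difference between classes was not tested over samples. Jund held the most UMIs of any member in neurons and was above 1 in all 8 of these classes. After subtraction of empty-droplet RNA Jund was at 0.959 in striatal-type neurons and 0.713 in microglia. Empty droplets would supply 73.3% of aged and 99.4% of young Jund UMIs in astrocytes, and 44.9% and 65.3% in precursors. Without Jund, the sum in each of the 4 classes above 1 had an interval that included 1. In the other 4 it stayed below 1. Glutamatergic neurons, not listed here, were also below 1 for the 10 members.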

How the results depend on the processing

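The summed ratio of the 10 members in 6 classes was recomputed under 10 other settings, 60 values in all, of which 51 stayed within the counting interval and 9 moved beyond it, none of them to the other side of 1. Without Jund, which is also the sum without the member with most UMIs, it was 0.694 in neurons, 0.614 in striatal-type neurons, 0.626 in interneurons, 0.774 in glutamatergic neurons and 1.06 in glia, in place of 0.843, 0.732, 0.815, 0.916 and 1.30. Subtracting the RNA of an empty droplet gave 0.781 in neurons and 0.664 in striatal-type neurons, and keeping likely doublets gave 0.982 in interneurons and 1.15 in glia. Joining each GABAergic sub-cluster to its best-scoring class, chosen after seeing the data, reversed hypothalamic GABAergic neurons to 0.956. The cause of these moves was not tested. Of 441 values of single members, 8 moved, among them Egr1 (0.357) and Nr4a1 (1.68) in interneurons with doublets kept and Jund in glia (1.79) at 1000 or more genes. The share of neuron genes lower by the rule was 6.39% at a fold of 1.5 and 19.9% with at least 1 UMI in each library, in place of 13.7%. With 1 CPM added in place of 5, the median log2 ratio of the other rapid response genes was −0.15 in place of −0.05. Scaling to the median gene moved neurons by 0.02 and oligodendrocytes by 0.10 on the log2 scale. Counts limit the smaller classes: 6 members in interneurons, 3 in microglia, 1 each in precursors and astrocytes and 0 in cholinergic neurons had 50 or more UMIs. No paired analysis was possible because each age has 1 library.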
